A study of Homo sapiens with 12 samples.

Results

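Obatoclax is a small molecule designed to bind the groove with which the antiapoptotic proteins of the BCL2 family hold their proapoptotic partners. RS4:11 and SEM-K2 are established cell lines of B cell precursor acute lymphoblastic leukaemia whose chromosomes carry a fusion of KMT2A (MLL), a histone methyltransferase gene, with AFF1 (AF4). Over 6 h the cells received vehicle, obatoclax at its 72 h EC50, the concentration midway to the maximal effect in a 72 h assay, or obatoclax at 3 times that concentration (3xEC50). Each of the 6 groups held 2 biologic replicates, so that 12 of the series' 12 Affymetrix U133 Plus 2 arrays entered the comparison described here: 8 obatoclax arrays, of both concentrations and both lines, against 4 vehicle arrays. Every array holds RNA of cells with the KMT2A fusion, and no line without it was compared. Each line is a single model, the concentrations and their equality between lines are not given in the sources used here, and the labels do not say that replicates came from separate passages, so the p-values measure the spread between these arrays, part of which may be technical. That spread includes differences between the EC50 and 3xEC50 arrays of the same line and replicate. Each such pair was set against the same vehicle array.

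The question was which genes obatoclax moved in the same direction in both lines. Of 10561 genes tested, 703 did so: 460 rose and 243 fell. A value is the authors' GCRMA value of a probe set on the log2 scale, so that a difference of 1 is a doubling, and a value under 4 was read as not above the array's floor. A change is obatoclax minus vehicle from a limma model with a term for each line and replicate number, and ± is its standard error (SE). A gene was called shared when its change over both lines had a Benjamini-Hochberg adjusted p under 0.05, when the changes of RS4:11 and SEM-K2 had the same sign, and when its probe set exceeded 4 on at least 2 arrays of each line, as 9804 genes did. Per-array values are given with replicate 1 before replicate 2.

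By way of background, BCL2 proteins hold BAX and BAK1 in check at the mitochondrial outer membrane, and drugs of this kind are meant to release them. Genes of other systems are also described below: lysosomes, whose genes are under the transcription factors TFEB and TFE3, which folliculin (FLCN) and the RAG GTPases hold back with mTORC1 at the lysosomal surface; NF-kappaB and interferon signalling; and the synthesis of ribosomes, amino acids and chaperones, which growing cells keep high. B cell precursors assemble immunoglobulin genes with RAG1 and RAG2 and display a pre-B receptor built with the surrogate light chain proteins VPREB1 and IGLL1.

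Most markers of B cell precursor leukaemia were present: 13 of 16 exceeded 4 on at least 2 arrays. Of markers of other cell types, 1 of 14 myeloid, 3 of 13 T and NK, 1 of 13 erythroid and megakaryocytic, and 2 of 11 fibroblast and epithelial genes did so. Levels were summed over these members only, not over the whole lists. They were CSF1R alone for the myeloid list and ITGA2B alone for the erythroid and megakaryocytic list. For T and NK they were LCK, ZAP70 and NKG7, and for fibroblast and epithelial genes COL1A1 and KRT8. The log2 of the sum for the myeloid list ran from 6.46 to 6.62 on vehicle arrays and from 6.29 to 6.58 on obatoclax arrays. That of the T and NK list ran from 10.31 to 11.11 and from 10.48 to 11.34, that of the erythroid and megakaryocytic list from 4.38 to 6.30 and from 4.21 to 6.05, and that of the fibroblast and epithelial list from 6.95 to 7.31 and from 6.90 to 7.31. None of these 4 lists had a shared member. SEM-K2 3xEC50 replicate 2 stood apart in RNA quality, with a log2 difference between the 3' and 5' ACTB probe sets of 1.97 against 0.87 to 1.23 on the other 11 arrays, and RS4:11 vehicle replicate 1 in an 18S ribosomal RNA probe set (9.85 against at most 6.98). Without the first of these arrays 462 genes rose and 289 fell in both lines, and without the second 444 and 162. The median of the genes tested was lowest on the vehicle arrays numbered 2, at 8.22 in RS4:11 and 8.17 in SEM-K2 against 8.27 to 8.34 on the other 10 arrays.

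Over both lines together, 478 genes rose (4.53% of the genes tested) and 252 fell (2.39%). Of these 730 genes, 27 did not exceed 4 on 2 arrays of each line, and 0 had opposite signs in the lines, which left the 460 risen (4.69% of 9804) and the 243 fallen (2.48%). Risen genes thus made 65.4% of the 703, and 52.0% (400 of 769) when each array was first centred on its median, which moved the median change of all genes from 0.04 to -0.01. Most shared changes were small: the median size was 0.49 on the log2 scale, and 29 risen and 10 fallen genes changed at least 2-fold. In 433 of the risen and 225 of the fallen genes all 8 obatoclax arrays lay on the same side of the vehicle array of their own line and replicate number. Both concentrations of a line and replicate number share the same vehicle array, so these 8 comparisons are not independent. Over all genes tested 10.6% had all 8 above and 5.75% all 8 below, but the shared genes were chosen on the same array differences, so the contrast follows largely from the choice and is no support. Genes nearest the threshold were GTPBP3, a mitochondrial tRNA-modifying enzyme, inside it (-0.25, adjusted p = 0.0499), and SEC11A, a signal peptidase subunit, outside it (0.25, adjusted p = 0.0501).

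The change of each line came from a joint fit of all 12 arrays, with an estimate of spread common to both lines. Tests of these changes gave fewer calls, with 37 genes up (0.35%) and 25 down (0.237%) in RS4:11. In SEM-K2, 280 were up (2.65%) and 97 down (0.918%). The lines share no array, so that the changes of 1 line can be read against those of the other, but their p-values share that estimate. Of the 316 genes called in SEM-K2 and above 4 in both lines, 281 (88.9%) changed in the same direction in RS4:11, and 162 of them at an unadjusted p under 0.05. Of the 50 genes called in RS4:11 and above 4 in both lines, 47 (94%) had the same direction in SEM-K2, and 33 of them an unadjusted p under 0.05. Over all 9804 genes the sign was the same in 70.8%, and the changes of the lines correlated across genes with r = 0.60 (Pearson) and 0.57 (Spearman), a description, since genes are not independent replicates. 20 genes were called in each of the lines, 6.33% of those 316 SEM-K2 calls and 40% of those 50 RS4:11 calls, all with the same sign. A stricter test that adjusts the larger of the lines' p-values called 0 genes, with a smallest adjusted p of 0.103 and 611 genes at an unadjusted p under 0.05 in both lines. The size of a rise was larger in SEM-K2 for 307 of the 460 risen genes and of a fall for 105 of the 243 fallen genes, but 0 of the 703 differed between the lines in the test of that difference (limma, adjusted p under 0.05), against 7 of all genes tested (0.0663%). The step from EC50 to 3xEC50 was in the direction of the change for 561 of the 703, and 0 genes passed the test of the step itself (0% of all genes).

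**Figure D1:**
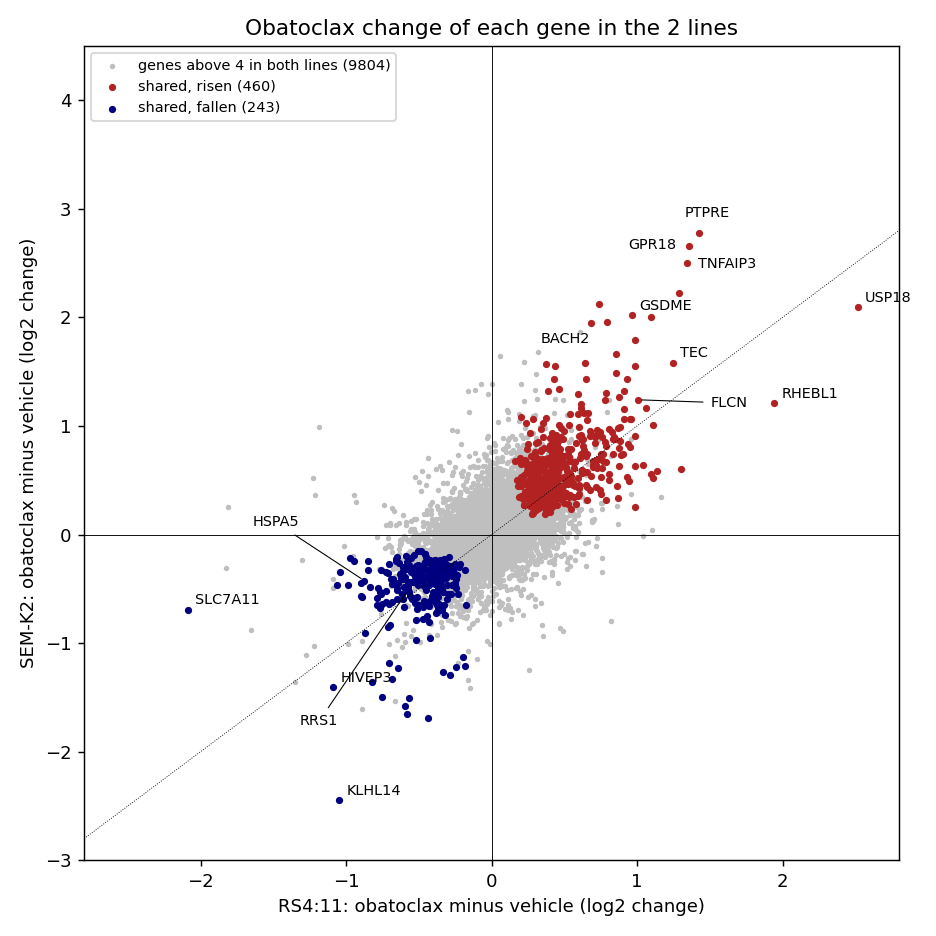
Change of each gene in RS4:11 (x axis) and SEM-K2 (y axis), each as obatoclax minus vehicle in log2 units; grey points are the 9804 genes above 4 in both lines, red and blue points the 460 shared risen and 243 shared fallen genes, and the dotted line marks equal change. Red points lie in the upper right and blue points in the lower left quadrant by definition, most red points lie above the dotted line, and SLC7A11 lies far to the left with a change of -2.09 in RS4:11 and -0.69 in SEM-K2.

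The largest rises included regulators of interferon and NF-kappaB signalling, receptors and kinases of lymphocytes, and lysosomal proteins. USP18 encodes a protease that removes the ubiquitin-like protein ISG15 and holds back the interferon receptor. USP18 read 3.83 and 4.03 on the RS4:11 vehicle arrays, 6.14 and 6.46 at EC50 and 6.37 and 6.82 at 3xEC50, and in SEM-K2 6.85 and 5.40, then 8.04 and 7.99, then 8.21 and 8.65. The 4 obatoclax arrays of each line lay above both of its vehicle arrays. The change was 2.31 ± 0.23 (adjusted p = 0.00224), with 2.52 ± 0.32 in RS4:11 and 2.10 ± 0.32 in SEM-K2. The RS4:11 vehicle mean was under 4, which makes the rise in that line at least 5.39-fold; USP18 has a near-identical copy, USP41, whose transcripts the probes may also bind. GPR18 is a G protein-coupled receptor of lymphocytes. In RS4:11, GPR18 stood at 8.20 and 7.64 with vehicle, 9.34 and 9.04 at EC50 and 9.41 and 9.33 at 3xEC50, and in SEM-K2 at 5.28 and 4.06, 7.35 and 6.93 and 7.81 and 7.22 in the same order. All treated arrays of GPR18 were higher than both vehicle arrays of their line. Over both lines GPR18 changed by 2.01 ± 0.24 (adjusted p = 0.00324), by 1.36 in RS4:11 and 2.66 in SEM-K2. TEC is a cytoplasmic tyrosine kinase of the family of BTK. For TEC, the RS4:11 arrays gave 5.81 and 6.47 with vehicle, 6.92 and 7.77 at EC50 and 7.11 and 7.74 at 3xEC50, and the SEM-K2 arrays 5.78 and 5.36, 7.12 and 6.91 and 7.04 and 7.53. Treated and vehicle arrays did not overlap in either line, the treated being higher. The change was 1.41 ± 0.13 (adjusted p = 0.00198), with 1.24 ± 0.18 in RS4:11 and 1.58 ± 0.18 in SEM-K2. RHEBL1 encodes a small GTPase closely related to RHEB, the activator of mTORC1. The values of RHEBL1 were 6.28 and 5.11 (vehicle), 7.60 and 7.43 (EC50) and 7.87 and 7.64 (3xEC50) in RS4:11 and 7.88 and 7.07, 8.97 and 8.13 and 8.92 and 8.71 in SEM-K2. In both lines every obatoclax array was above both vehicle arrays. Over both lines RHEBL1 changed by 1.58 ± 0.19 (adjusted p = 0.00324), by 1.94 in RS4:11 and 1.21 in SEM-K2. It was among the minority of risen genes with the larger change in RS4:11.

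GSDME, a gasdermin that forms membrane pores after cleavage by caspase 3, ran from 9.60 to 9.73 with vehicle and from 10.52 to 10.73 with obatoclax in RS4:11, and from 8.74 to 8.85 and from 10.49 to 11.19 in SEM-K2. Neither line had an overlap, with obatoclax arrays higher throughout. Over both lines GSDME changed by 1.49 ± 0.19 (adjusted p = 0.00362), by 0.97 in RS4:11 and 2.02 in SEM-K2. PTPRE, a receptor-type tyrosine phosphatase, rose on the probe set used by 2.10 ± 0.29 (adjusted p = 0.00527). Its other probe sets gave 0.0045 and 0.21, but their mean values, 1.95 and 3.71, lay under 4. For RGS1, a regulator of G protein signalling, the probe set used gave 1.38 ± 0.21 and another 1.35. The lowest of its 3 probe sets gave 0.01, at a mean value under 4 (3.21). SLC17A5, the lysosomal sialic acid exporter sialin, rose by 1.39 ± 0.17, with 1.36 on its other probe set. Its arrays were apart in both lines, between 6.72 and 6.84 with vehicle and between 7.57 and 7.88 with obatoclax in RS4:11. CST7, or cystatin F, an inhibitor of lysosomal cysteine proteases, rose by 1.32 ± 0.25 (adjusted p = 0.0171), a call that was lost without SEM-K2 vehicle replicate 1. SMIM3, a small integral membrane protein, rose by 1.55 ± 0.25. UAP1L1, a relative of an enzyme that activates N-acetylglucosamine, rose by 1.76 ± 0.26, at least 2.9-fold in SEM-K2, where the vehicle mean was under 4.

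**Figure D2:**
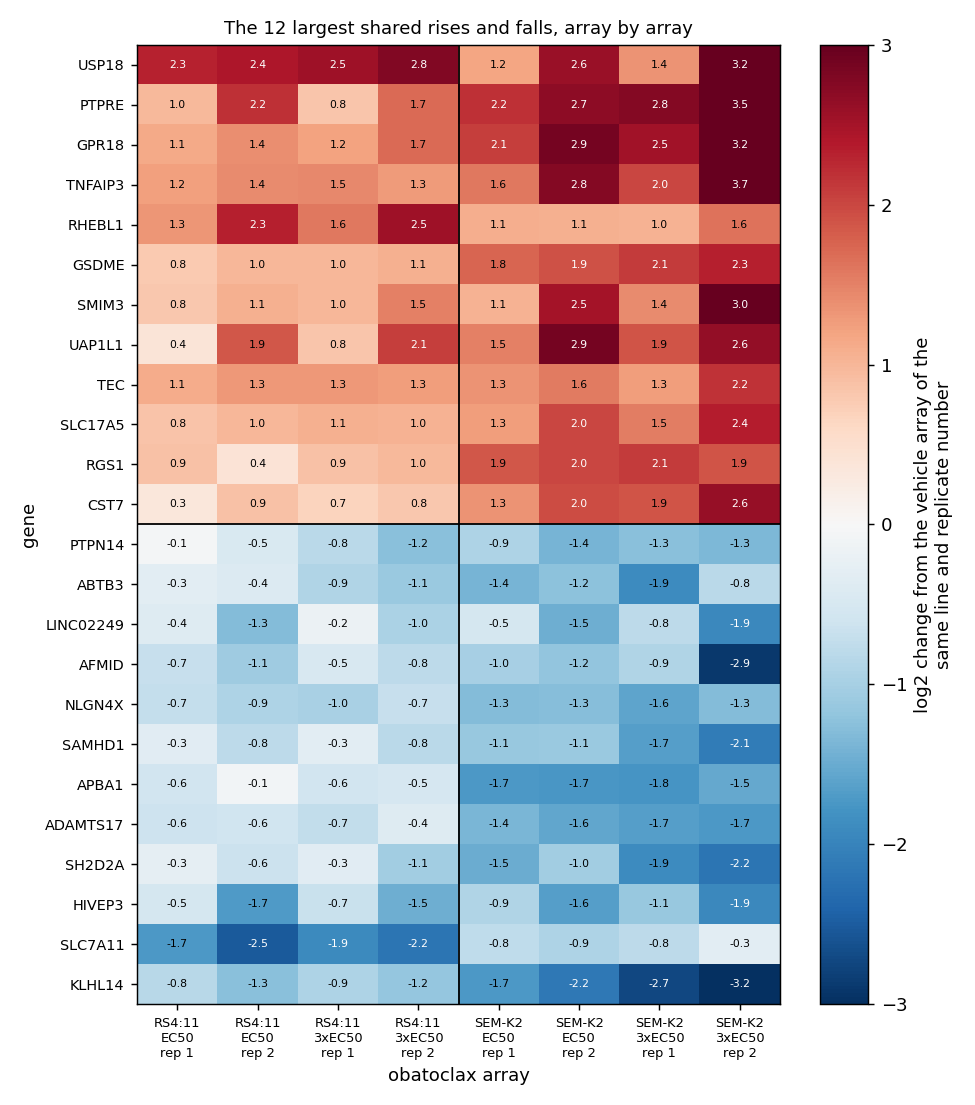
Log2 change of each obatoclax array from the vehicle array of its own line and replicate number (colour and printed value) for the 12 largest shared rises, above the horizontal line, and the 12 largest shared falls, below it; the 4 columns on the left are RS4:11 and the 4 on the right SEM-K2, at EC50 and 3xEC50. All 8 columns have the sign of the gene's change, which the choice of these genes required, and the colours are deeper on the right for most genes, with USP18, RHEBL1 and SLC7A11 as exceptions.

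The largest falls were of unrelated kinds. KLHL14 encodes a substrate adaptor of cullin 3 ubiquitin ligases that is made in B cells. The values of KLHL14 were 6.74 and 6.23 (vehicle), 5.91 and 4.96 (EC50) and 5.81 and 5.06 (3xEC50) in RS4:11 and 7.53 and 7.49, 5.81 and 5.34 and 4.81 and 4.30 in SEM-K2. Thus KLHL14 was lower on every treated array than on any vehicle array of its line. Over both lines KLHL14 changed by -1.75 ± 0.30 (adjusted p = 0.0117), by -1.05 in RS4:11 and -2.45 in SEM-K2. Its 3 probe sets ranged from -1.75 to 0.0002, but those not used had mean values under 4 (3.26 and 2.87). NLGN4X, a neuroligin, is a cell adhesion protein known from synapses. In RS4:11, NLGN4X stood at 5.54 and 5.75 with vehicle, 4.82 and 4.84 at EC50 and 4.57 and 5.07 at 3xEC50, and in SEM-K2 at 5.73 and 5.07, 4.44 and 3.80 and 4.16 and 3.78 in the same order. The 4 obatoclax arrays of each line lay below both of its vehicle arrays. Over both lines NLGN4X changed by -1.09 ± 0.12 (adjusted p = 0.00305), by -0.82 in RS4:11 and -1.36 in SEM-K2. Of its values, those of SEM-K2 with obatoclax at replicate 2 lay under 4. HIVEP3, a large zinc finger protein, fell from between 7.35 and 7.61 to between 5.90 and 6.82 in RS4:11, and from between 7.74 and 7.85 to between 5.92 and 6.83 in SEM-K2, on 1 of 5 probe sets. Of the others, those with mean values above 4 gave -0.26 and -0.26, and those under 4 gave 0.0047 and 0.02. The change of HIVEP3 on the probe set used was -1.25 ± 0.17 (adjusted p = 0.0042), and the groups did not overlap in either line.

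ADAMTS17, a secreted metalloprotease, fell by 1.09 on the log2 scale (SE 0.17, adjusted p = 0.00883). SAMHD1, a phosphohydrolase that degrades deoxynucleotides, gave -1.04 ± 0.22 on a probe set ending in _x_at, whose probes can match other transcripts, and without such sets it gave -1.08 and did not pass (adjusted p = 0.0572). Its 6 probe sets lay between -1.32 and -0.45. Both losses were larger in SEM-K2, at -1.58 for ADAMTS17 and -1.51 for SAMHD1, than in RS4:11, at -0.60 and -0.57, without a difference that passed its test. The adaptor proteins SH2D2A and APBA1 changed by -1.11 ± 0.25 and -1.06 ± 0.21, the phosphatase PTPN14 by -0.94 ± 0.19, the BTB domain protein ABTB3 by -1.01 ± 0.20, and the long noncoding RNA LINC02249 by -0.94 ± 0.20. AFMID, an enzyme of tryptophan breakdown, changed by -1.13 ± 0.30 (adjusted p = 0.0473) and kept its call in 2 of the 12 fits that each left out 1 array. In those fits SH2D2A kept it in 6, SAMHD1 in 8, PTPN14 and ABTB3 in 9, and APBA1 and LINC02249 in 10, and KLHL14, NLGN4X, HIVEP3 and ADAMTS17 in all 12.

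Folliculin, its partners FNIP1 and FNIP2 and the GTPases RRAGC and RRAGD rose in both lines. Folliculin acts with FNIP1 or FNIP2 as an activator of RRAGC and RRAGD, and these GTPases, anchored by the LAMTOR proteins, bring mTORC1 and TFEB to the lysosome. Of 15 tested members of the list of folliculin, RAG GTPases and TFEB family, 6 were shared rises and 0 shared falls, with a median change of 0.28 against 0.04 over all genes tested and a background of 4.69% risen. FLCN read 5.25 and 5.08 on the RS4:11 vehicle arrays, 6.26 and 6.20 at EC50 and 6.02 and 6.21 at 3xEC50, and in SEM-K2 5.59 and 5.63, then 6.87 and 6.55, then 7.00 and 6.99. All treated arrays of FLCN were higher than both vehicle arrays of their line. The change was 1.12 ± 0.10 (adjusted p = 0.00198), with 1.01 ± 0.14 in RS4:11 and 1.24 ± 0.14 in SEM-K2. Its 4 probe sets ranged from 0.27, on a set with a mean value under 4 (3.25), to 1.12. The partner FNIP2 showed nearly the same size in both lines. In RS4:11, FNIP2 stood at 8.38 and 8.34 with vehicle, 9.10 and 9.35 at EC50 and 9.20 and 9.19 at 3xEC50, and in SEM-K2 at 8.54 and 8.56, 9.17 and 9.39 and 9.57 and 9.61 in the same order. Treated and vehicle arrays did not overlap in either line, the treated being higher. Over both lines FNIP2 changed by 0.87 ± 0.09 (adjusted p = 0.0024), by 0.85 in RS4:11 and 0.88 in SEM-K2. RRAGD is the GTPase of the pair whose gene TFEB is known to induce. For RRAGD, the RS4:11 arrays gave 8.05 and 7.41 with vehicle, 8.54 and 8.08 at EC50 and 8.71 and 8.27 at 3xEC50, and the SEM-K2 arrays 7.89 and 7.35, 8.71 and 8.74 and 8.88 and 8.63. In both lines every obatoclax array was above both vehicle arrays. The change was 0.89 ± 0.11 (adjusted p = 0.00324), with 0.67 ± 0.13 in RS4:11 and 1.12 ± 0.13 in SEM-K2. Further shared rises were RRAGC (the close relative of RRAGD, 0.66 ± 0.13, adjusted p = 0.0185), FNIP1 (the other folliculin partner, 0.57 ± 0.08, adjusted p = 0.00578) and LAMTOR3 (a subunit of the anchor, 0.40 ± 0.08, adjusted p = 0.0199). The transcription factors themselves did not pass, TFE3 with 0.30 ± 0.09 and TFEB with 0.20 ± 0.15, nor did the RAG partners RRAGA (0.28) and RRAGB (-0.15). With 1 array left out at a time the count ran from 4 to 6.

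Transcripts of lysosomal proteins lay mostly above vehicle, and within the list below the largest shared rises were of enzymes and a lipid carrier of the lumen. Of 37 tested hydrolases and membrane proteins of the lysosome 7 were shared rises (background 4.69%) and 0 shared falls. Of the 37, 33 had a change above 0, against 59.3% of all genes tested. The median was 0.29, with 0.17 in RS4:11 and 0.37 in SEM-K2. On the arrays numbered 1 the list's median change was 0.06 and 0.04 in RS4:11 and 0.19 and 0.32 in SEM-K2. On those numbered 2 it was 0.18 to 0.59, and the part of their vehicle arrays was not tested. NPC2 carries cholesterol out of the lysosomal lumen. The values of NPC2 were 9.32 and 9.11 (vehicle), 10.08 and 10.08 (EC50) and 10.43 and 10.09 (3xEC50) in RS4:11 and 9.98 and 8.84, 10.55 and 10.07 and 10.80 and 10.46 in SEM-K2. Neither line had an overlap, with obatoclax arrays higher throughout. Over both lines NPC2 changed by 1.01 ± 0.12 (adjusted p = 0.00324), by 0.96 in RS4:11 and 1.06 in SEM-K2. NEU1 is the lysosomal sialidase. NEU1 read 7.01 and 6.73 on the RS4:11 vehicle arrays, 7.62 and 7.60 at EC50 and 7.77 and 7.63 at 3xEC50, and in SEM-K2 7.73 and 6.86, then 8.67 and 8.11, then 8.81 and 8.79. Thus NEU1 was higher on every treated array than on any vehicle array of its line. The change was 1.04 ± 0.15 (adjusted p = 0.00578), with 0.79 ± 0.19 in RS4:11 and 1.30 ± 0.19 in SEM-K2. CTSD, or cathepsin D, is the main aspartic protease of the lysosome. In RS4:11, CTSD stood at 5.52 and 5.41 with vehicle, 6.24 and 6.04 at EC50 and 6.65 and 6.16 at 3xEC50, and in SEM-K2 at 5.74 and 5.69, 6.71 and 6.69 and 7.35 and 5.98 in the same order. The 4 obatoclax arrays of each line lay above both of its vehicle arrays. Over both lines CTSD changed by 0.89 ± 0.17 (adjusted p = 0.0173), by 0.81 in RS4:11 and 0.97 in SEM-K2. Its call was lost without SEM-K2 vehicle replicate 1 or RS4:11 vehicle replicate 2. The other shared members were PIP4P2 (a phosphoinositide phosphatase, 0.50 ± 0.13, adjusted p = 0.0423), CTSB (the cysteine protease cathepsin B, 0.45 ± 0.11, adjusted p = 0.0359), SCARB2 (the receptor that brings glucocerebrosidase to the lysosome, 0.42 ± 0.09, adjusted p = 0.0277) and PSAP (the precursor of the saposins, 0.33 ± 0.09, adjusted p = 0.0466). Members that did not pass ranged up to 0.67 ± 0.33 for CTSZ, and CTSC was lowest at -0.19 ± 0.11. This count ran from 2 to 9 when each array was left out in turn, lowest without SEM-K2 vehicle replicate 1 or RS4:11 vehicle replicate 2, and moved by over 1.5 times in every such fit except those without RS4:11 vehicle replicate 1 or RS4:11 obatoclax EC50 replicate 1 or SEM-K2 obatoclax EC50 replicate 2 or SEM-K2 obatoclax 3xEC50 replicate 2, and was 2 with no replicate block. The proton pump that acidifies the lysosome had 1 shared rise among 14 tested subunits, ATP6V1D (0.39 ± 0.09, adjusted p = 0.0374), a median of 0.23 and 13 subunits above 0. ATP6V1D was read on an _x_at probe set, kept its call in 2 of 12 fits with 1 array left out and lost it with the mean of its probe sets (0.21, adjusted p = 0.0613). The pump list's median change was 0.0078 to 0.21 on the arrays numbered 1 and 0.17 to 0.47 on those numbered 2, whose vehicle arrays had the lowest medians over all genes, and the part of those arrays was not tested.

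Promoter sequences are shown for members of both lists because factors of the TFEB family are known to bind the CLEAR element, whose core is the E-box CACGTG. RefSeq promoters of GRCh38.p14, from 250 bases before to 50 after a gene's start, were searched on both strands for the letters CACGTG and for a longer form of the CLEAR element, GTCAC followed by its reverse complement, which holds them. CACGTG stood in 7.26% of 35116 promoters, in 9.7% of those of the genes tested and in 9.73% of those of the shared risen genes. Among promoters of shared members it stood in 2 of 5 lysosomal and 2 of 7 folliculin list promoters, in 28.9% of 38 and 18.2% of 22 promoters of all tested members of these lists. The matches with 14 bases of flank on each side follow, written along the gene's strand with the match in capitals.
CTSD, chr11:1763955-1763988, minus strand: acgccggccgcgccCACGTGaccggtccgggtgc
NEU1, chr6:31862928-31862961, minus strand: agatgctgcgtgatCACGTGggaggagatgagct
RRAGC, chr1:38859865-38859898, minus strand: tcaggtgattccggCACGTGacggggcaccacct
FNIP1 first match, chr5:131797173-131797206, minus strand: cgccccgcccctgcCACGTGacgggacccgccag
FNIP1 second match, chr5:131797092-131797125, minus strand: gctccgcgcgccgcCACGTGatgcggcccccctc
The capitals begin 47 bases before the start of CTSD, 126 before that of NEU1, 112 before that of RRAGC, and 175 and 94 before that of FNIP1. The longer form stood in 0.353% of all promoters and 0.691% of those of the genes tested, in 10.5% and 4.55% of the promoters of all tested members of the lysosomal and folliculin lists, and in none of the 5 and 7 promoters of shared members. A match is a description of the letters and shows no binding in these cells.

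Of 30 tested autophagy genes 5 were shared rises (background 4.69%) and 0 shared falls, and the median was 0.19. The list's median change was 0.02 to 0.14 on the arrays numbered 1 and 0.17 to 0.38 on those numbered 2. The vehicle arrays numbered 2 had the lowest medians over all genes, and their part in these values was not tested. WIPI1 binds phosphoinositides on the forming autophagosome. For WIPI1, the RS4:11 arrays gave 4.28 and 4.20 with vehicle, 4.65 and 5.63 at EC50 and 5.25 and 5.86 at 3xEC50, and the SEM-K2 arrays 6.16 and 5.79, 6.91 and 6.78 and 7.24 and 7.02. All treated arrays of WIPI1 were higher than both vehicle arrays of their line. The change was 1.06 ± 0.15 (adjusted p = 0.00552), with 1.11 ± 0.22 in RS4:11 and 1.01 ± 0.22 in SEM-K2. The others were OPTN (the receptor optineurin, 0.93 ± 0.22, adjusted p = 0.0325), GABARAP (a protein of the LC3 family, 0.54 ± 0.12, adjusted p = 0.029), BNIP3L (a mitophagy receptor, 0.44 ± 0.10, adjusted p = 0.028) and WIPI2 (the relative of WIPI1, 0.36 ± 0.08, adjusted p = 0.0256). SQSTM1 (0.59 ± 0.20, adjusted p = 0.0957) and MAP1LC3B (0.52 ± 0.15, adjusted p = 0.0616), the most used markers of the pathway, did not pass. Leaving out each array in turn gave between 1 and 7 shared genes in the list, lowest without RS4:11 obatoclax 3xEC50 replicate 1 or SEM-K2 obatoclax 3xEC50 replicate 1 or RS4:11 vehicle replicate 2, and moved by over 1.5 times without RS4:11 obatoclax 3xEC50 replicate 1, SEM-K2 vehicle replicate 1, SEM-K2 obatoclax 3xEC50 replicate 1, RS4:11 vehicle replicate 2, RS4:11 obatoclax EC50 replicate 2 or SEM-K2 vehicle replicate 2, and was 1 with no replicate block. Of 26 tested components and regulators of mTOR, 1 was a shared rise (background 4.69%) and 2 were shared falls (background 2.48%), with a median of -0.01. They were SESN3 (a stress-induced inhibitor of mTORC1, 0.71 ± 0.18, adjusted p = 0.0443), NPRL3 (a subunit of the complex that inactivates RRAGA and RRAGB, -0.45 ± 0.08, adjusted p = 0.0124) and GRB10 (an adaptor that dampens insulin signalling, -0.41 ± 0.10, adjusted p = 0.0352). NPRL3 kept its call in 11 and GRB10 in 3 of 12 fits with 1 array left out. Of 22 FOXO targets and insulin feedback genes, SESN3, CCNG2 (an unconventional cyclin, 0.71 ± 0.10, adjusted p = 0.00424) and IRS2 (an insulin receptor substrate, 0.54 ± 0.09, adjusted p = 0.0119) were shared rises and IL7R (the interleukin 7 receptor chain, -0.70 ± 0.18, adjusted p = 0.0454) a shared fall, with a list median of 0.02 and 1 shared rise with no replicate block. For this list too the background was 4.69% shared rises and 2.48% shared falls. IL7R fell by 1.21 on the log2 scale in SEM-K2 and by 0.18 in RS4:11, where vehicle and obatoclax arrays overlapped, and it kept its call in 2 of 12 fits with 1 array left out.

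**Figure D3:**
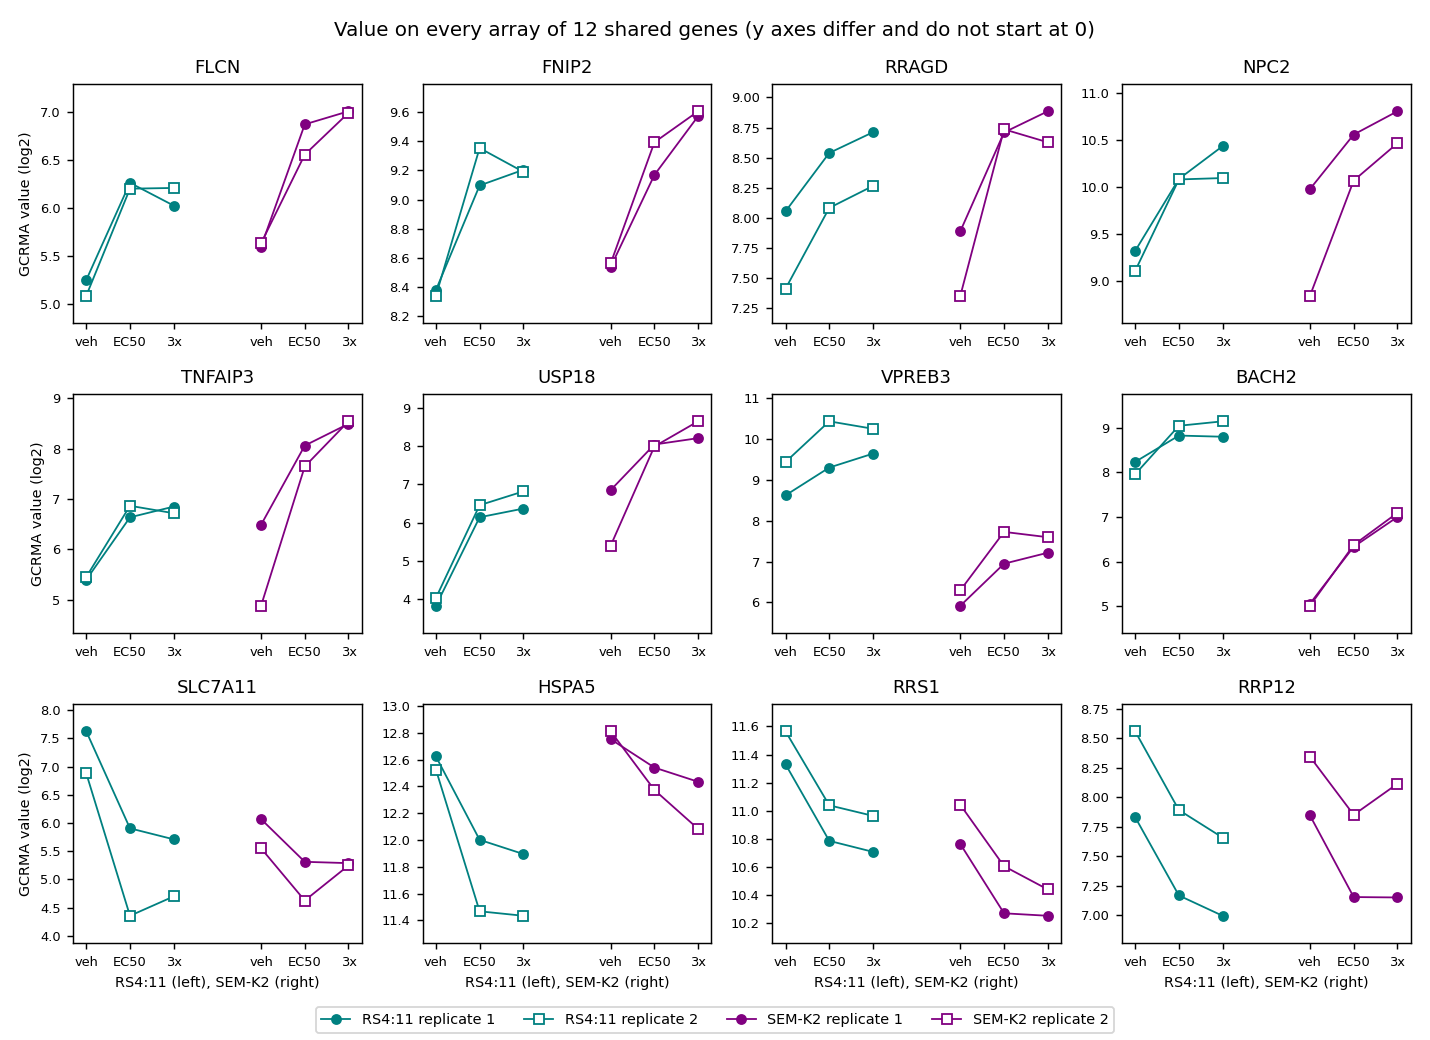
GCRMA value (log2, y axis) on each of the 12 arrays for 12 shared genes, by treatment (x axis: vehicle, EC50, 3xEC50) with RS4:11 on the left and SEM-K2 on the right of each panel; filled circles are replicate 1, open squares replicate 2, and lines join arrays of 1 line and replicate number. The first 2 rows hold genes that rose and the last row genes that fell, and the SEM-K2 vehicle arrays stood apart for TNFAIP3 (6.49 and 4.88) and USP18 (6.85 and 5.40).

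Several genes under NF-kappaB rose in both lines, inhibitors of the pathway among them. Of 16 tested feedback and target genes 4 were shared rises (background 4.69%) and 0 shared falls. The median was 0.37, with 0.16 in RS4:11 and 0.57 in SEM-K2. TNFAIP3 encodes A20, a ubiquitin-editing enzyme that switches NF-kappaB signalling off. The values of TNFAIP3 were 5.40 and 5.45 (vehicle), 6.64 and 6.87 (EC50) and 6.85 and 6.72 (3xEC50) in RS4:11 and 6.49 and 4.88, 8.06 and 7.65 and 8.49 and 8.54 in SEM-K2. Treated and vehicle arrays did not overlap in either line, the treated being higher. Over both lines TNFAIP3 changed by 1.92 ± 0.28 (adjusted p = 0.00578), by 1.34 in RS4:11 and 2.50 in SEM-K2. Its other probe set gave 1.70, and the vehicle arrays of SEM-K2 were themselves 6.49 and 4.88. CD83 is a surface protein of activated B cells and dendritic cells. In RS4:11, CD83 stood at 5.94 and 6.08 with vehicle, 6.14 and 6.59 at EC50 and 6.15 and 6.65 at 3xEC50, and in SEM-K2 at 5.62 and 5.52, 6.89 and 7.00 and 7.12 and 7.55 in the same order. In both lines every obatoclax array was above both vehicle arrays. Over both lines CD83 changed by 0.97 ± 0.22 (adjusted p = 0.028), by 0.37 in RS4:11 and 1.57 in SEM-K2. The remaining shared rises were ICAM1 (an adhesion molecule, 0.50 ± 0.11, adjusted p = 0.0256) and TNIP1 (a partner of A20, 0.45 ± 0.11, adjusted p = 0.0359). NFKBIA, which encodes the inhibitor IkappaBalpha, gave 0.65 ± 0.21 (adjusted p = 0.0883) and CD40 1.00 ± 0.30 (adjusted p = 0.0722). With 1 array left out at a time the count ran from 1 to 5, lowest without SEM-K2 vehicle replicate 1 or RS4:11 vehicle replicate 2, and moved by over 1.5 times without SEM-K2 vehicle replicate 1, SEM-K2 obatoclax 3xEC50 replicate 1, RS4:11 vehicle replicate 2 or SEM-K2 vehicle replicate 2, and was 1 with no replicate block.

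The promoters of TNFAIP3, TNIP1 and CYLD, a deubiquitinase that also restrains NF-kappaB, are shown because they held a form of the kappaB site, GGG, any 2 bases and TTTCC, searched on both strands. These letters stood in 1.91% of all promoters and 2.2% of those of the genes tested. The share was 3.19% for the shared risen and 1.72% for the shared fallen genes. Among promoters of the NF-kappaB list they stood in 2 of 6 (33.3%) of shared members and in 9 of 20 (45%) of all tested members. The TNFAIP3 window holds the longer CLEAR form followed by 2 such sites on the opposite strand, all in capitals.
TNFAIP3, chr6:137867165-137867227, plus strand: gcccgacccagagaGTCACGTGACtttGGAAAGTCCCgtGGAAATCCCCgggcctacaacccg
TNIP1, chr5:151081053-151081090, minus strand: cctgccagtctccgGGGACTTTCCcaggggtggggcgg
CYLD, chr16:50741883-50741920, plus strand: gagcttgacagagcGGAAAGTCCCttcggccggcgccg
The TNFAIP3 matches begin 80, 67 and 55 bases before the start, that of TNIP1 42 and that of CYLD 189 bases before it. CYLD rose by 0.59 ± 0.10 (adjusted p = 0.0121) on the probe set used. Its 7 probe sets ranged from -0.06, on a set with a mean value under 4 (2.71), to 0.59, and those above 4 ranged from 0.05.

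Genes of the BCL2 family, to which the drug's targets belong, had 3 shared members. None of the 4 tested antiapoptotic members was shared: BCL2 gave 0.23 ± 0.07 (adjusted p = 0.061), BCL2L2 0.19 ± 0.13, BCL2L1 0.10 ± 0.32 and MCL1 0.05 ± 0.10. Of 10 tested genes for BAX, BAK1 and the BH3-only proteins, BNIP3L was a shared rise, and PMAIP1 (NOXA, -0.27 ± 0.06, adjusted p = 0.0325) and BAD (-0.35 ± 0.08, adjusted p = 0.0373) were shared falls, beside 7.17% shared in either direction over all genes. PMAIP1 and BAD are sensitisers that bind antiapoptotic proteins. The values of PMAIP1 were 11.88 and 11.66 (vehicle), 11.70 and 11.30 (EC50) and 11.73 and 11.38 (3xEC50) in RS4:11 and 11.14 and 10.85, 10.84 and 10.66 and 10.81 and 10.53 in SEM-K2. Vehicle and obatoclax arrays were apart in SEM-K2 and overlapped in RS4:11, where each treated array was still below the vehicle array of its replicate number. PMAIP1 and BAD each kept the call in 3 of 12 fits with 1 array left out. The 3 probe sets of BAD ran from -0.35 to 0.15, and their mean gave -0.05 (adjusted p = 0.796). Of 16 genes of death receptors, caspases and necroptosis, CYLD and CFLAR, an inhibitor of caspase 8, were shared rises (background 4.69%). The CFLAR value came from an _x_at probe set (0.54 ± 0.12, adjusted p = 0.0287). Its 14 probe sets ran from -0.39 to 0.64, both on sets with mean values under 4 (3.72 and 3.71). Without _x_at probe sets the change of CFLAR was -0.09 (adjusted p = 0.802).

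Interferon-stimulated genes, which encode antiviral proteins and their regulators, held the most shared rises of the lists. Of 24 tested members 10 were shared rises (background 4.69%) and 1 a shared fall (background 2.48%), and the median was 0.42. Of the 24, 21 were above 0, against 59.3% of all genes tested. IFIT3 binds viral RNA together with its relatives. IFIT3 read 7.55 and 6.26 on the RS4:11 vehicle arrays, 8.11 and 7.21 at EC50 and 8.32 and 7.58 at 3xEC50, and in SEM-K2 7.53 and 7.03, then 8.27 and 7.90, then 8.26 and 7.67. The groups overlapped in RS4:11 but not in SEM-K2, and every treated array of IFIT3 was higher than its own vehicle array. The change was 0.82 ± 0.10 (adjusted p = 0.00324), with 0.90 ± 0.15 in RS4:11 and 0.74 ± 0.15 in SEM-K2. The other probe set of IFIT3 gave 0.20, and the mean of its probe sets 0.51 (adjusted p = 0.00766). OAS1 makes the oligoadenylate that activates RNase L. For OAS1, the RS4:11 arrays gave 5.74 and 5.02 with vehicle, 6.16 and 6.18 at EC50 and 6.19 and 6.55 at 3xEC50, and the SEM-K2 arrays 6.08 and 5.38, 6.60 and 6.29 and 6.78 and 6.19. Neither line had an overlap, with obatoclax arrays higher throughout. The change was 0.81 ± 0.13 (adjusted p = 0.00998), with 0.89 ± 0.19 in RS4:11 and 0.74 ± 0.19 in SEM-K2. Besides USP18, the others were the RNA sensor IFIH1 (0.69 ± 0.17), SAMD9L (0.79 ± 0.18), the ligase HERC5 (0.53 ± 0.10), OAS2 (0.52 ± 0.12), IFIT2 (0.38 ± 0.09) and the transcription factors IRF7 and IRF9 (0.43 ± 0.10 and 0.43 ± 0.09). ISG20, an exonuclease, fell (-0.51 ± 0.10, adjusted p = 0.0175), and ISG15 itself gave -0.04 ± 0.12 (adjusted p = 0.855). On the arrays numbered 1 the list's median change from the vehicle array of the same line and number was 0.17 to 0.34, and on those numbered 2 it was 0.38 to 0.53. This count ran from 4 to 11 when each array was left out in turn, lowest without SEM-K2 vehicle replicate 1 or RS4:11 vehicle replicate 2 or SEM-K2 vehicle replicate 2, and moved by over 1.5 times without RS4:11 obatoclax 3xEC50 replicate 1, SEM-K2 vehicle replicate 1, SEM-K2 obatoclax 3xEC50 replicate 1, RS4:11 vehicle replicate 2, RS4:11 obatoclax 3xEC50 replicate 2 or SEM-K2 vehicle replicate 2, and was 4 with no replicate block.

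Some genes of B cell precursors rose, in several groups. Of 9 tested genes of recombination and the pre-B receptor 5 were shared rises (background 4.69%), and the median was 0.50. All 9 were above 0, against 59.3% of all genes tested. VPREB3 is a chaperone-like protein of the pre-B receptor's assembly. In RS4:11, VPREB3 stood at 8.62 and 9.43 with vehicle, 9.30 and 10.43 at EC50 and 9.64 and 10.25 at 3xEC50, and in SEM-K2 at 5.92 and 6.30, 6.95 and 7.73 and 7.22 and 7.60 in the same order. Overlap was seen in RS4:11 alone, and within a replicate number the treated arrays were higher in both lines. Over both lines VPREB3 changed by 1.07 ± 0.11 (adjusted p = 0.00224), by 0.88 in RS4:11 and 1.26 in SEM-K2. RAG2 is the partner of the recombinase RAG1. The values of RAG2 were 9.43 and 8.40 (vehicle), 9.88 and 9.35 (EC50) and 9.98 and 9.36 (3xEC50) in RS4:11 and 5.07 and 5.08, 5.99 and 5.79 and 6.28 and 5.90 in SEM-K2. Vehicle and obatoclax arrays were apart in SEM-K2 and overlapped in RS4:11, where each treated array was still above the vehicle array of its replicate number. Over both lines RAG2 changed by 0.82 ± 0.10 (adjusted p = 0.00324), by 0.73 in RS4:11 and 0.92 in SEM-K2. The surrogate light chain gene IGLL1 changed by 0.67 ± 0.13, and the receptor's signalling chains CD79A and CD79B by 0.50 ± 0.08 and 0.48 ± 0.11. RAG1 passed the test over both lines (0.78 ± 0.19, adjusted p = 0.0369) without exceeding 4 on 2 arrays of each line, and is not counted. Leaving out each array in turn gave between 2 and 5 shared genes in the list, and it moved by over 1.5 times without RS4:11 vehicle replicate 2, and was 0 with no replicate block.

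Transcription factors of the B lineage had 4 shared rises (background 4.69%) among 23 tested. BACH2 represses plasma cell genes and marks the pre-B checkpoint. BACH2 read 8.24 and 7.96 on the RS4:11 vehicle arrays, 8.83 and 9.05 at EC50 and 8.80 and 9.15 at 3xEC50, and in SEM-K2 5.06 and 5.01, then 6.33 and 6.38, then 7.00 and 7.09. Thus BACH2 was higher on every treated array than on any vehicle array of its line. The change was 1.26 ± 0.20 (adjusted p = 0.00883), with 0.86 ± 0.23 in RS4:11 and 1.67 ± 0.23 in SEM-K2. The others were ID2 (an inhibitor of E proteins, 0.84 ± 0.22, adjusted p = 0.0468), POU2AF1 (the octamer coactivator OCA-B, 0.63 ± 0.08, adjusted p = 0.00324) and TCF3 (the E protein E2A, 0.44 ± 0.07, adjusted p = 0.0109). The 14 probe sets of TCF3 ran from -0.49 to 0.44, and their mean gave 0.06 (adjusted p = 0.555). PAX5 (-0.17 ± 0.06), EBF1 (-0.10 ± 0.09) and IKZF1 (-0.17 ± 0.07), which fix the lineage, did not pass. Of 23 surface receptors and adaptors 6 were shared rises and 1, IL7R, a shared fall (background 2.48%), with a median of 0.26. The median change of these 23 was 0.02 to 0.20 on the arrays numbered 1 and 0.23 to 0.51 on those numbered 2. CD72 is a coreceptor that dampens B cell receptor signals. For CD72, the RS4:11 arrays gave 11.19 and 10.95 with vehicle, 11.66 and 11.64 at EC50 and 11.71 and 11.70 at 3xEC50, and the SEM-K2 arrays 10.27 and 9.42, 11.20 and 10.79 and 11.27 and 10.91. The 4 obatoclax arrays of each line lay above both of its vehicle arrays. Its change was 0.91 ± 0.12, beside GPR18, the inhibitory receptor LAIR1 (0.79 ± 0.14), the tetraspanins CD37 (0.70 ± 0.12) and CD81 (0.44 ± 0.09) and the chemokine receptor CXCR4 (0.35 ± 0.07). Both counts moved by over 1.5 times without RS4:11 vehicle replicate 2, which gave 2 shared rises in each list, and were 1 and 2 with no replicate block. Of the 13 tested markers of B cell precursor leukaemia 3 were shared rises, and 0 without that array or with no replicate block. None of 17 tested targets of KMT2A fusions was shared, and their median was 0.01.

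Some genes of amino acid supply, tRNA charging and protein folding fell. The integrated stress response is a programme under the transcription factor ATF4 that raises amino acid transport and synthesis; of its 31 tested genes 0 were shared rises and 6 shared falls (background 2.48%), with a median of -0.37 in RS4:11 and -0.0048 in SEM-K2. SLC7A11 is the cystine importer that feeds glutathione synthesis, and also a target of NRF2. In RS4:11, SLC7A11 stood at 7.63 and 6.88 with vehicle, 5.91 and 4.35 at EC50 and 5.71 and 4.70 at 3xEC50, and in SEM-K2 at 6.07 and 5.55, 5.31 and 4.62 and 5.29 and 5.25 in the same order. All treated arrays of SLC7A11 were lower than both vehicle arrays of their line. Over both lines SLC7A11 changed by -1.39 ± 0.25 (adjusted p = 0.014), by -2.09 in RS4:11 and -0.69 in SEM-K2. Its probe sets ranged from -1.70 to 0.0021, the latter on a set with a mean value under 4 (1.88). The call of SLC7A11 was lost without RS4:11 vehicle replicate 2. The serine enzyme PSAT1 changed by -0.70 ± 0.13, the proline enzymes PYCR1 and ALDH18A1 by -0.54 ± 0.10 and -0.31 ± 0.07, and the amino acid transporters SLC7A5 and SLC7A1 by -0.59 ± 0.14 and -0.47 ± 0.09. ATF4 itself gave -0.25 ± 0.08 (adjusted p = 0.0987) and DDIT3, the proapoptotic factor CHOP, 0.36 ± 0.22 (adjusted p = 0.336). With 1 array left out at a time the count ran from 0 to 8, and it moved by over 1.5 times without RS4:11 vehicle replicate 2, and was 1 with no replicate block. SLC7A11 was the 1 shared gene among 10 tested NRF2 targets, beside 7.17% shared in either direction over all genes, and NQO1 gave -0.12 ± 0.18.

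Of 17 tested cytosolic aminoacyl tRNA synthetases 6 were shared falls (background 2.48%) and 0 shared rises. Of the 17, 0 had a change above 0, against 59.3% of all genes tested, and the median was -0.28. The 6 shared falls were CARS1 (-0.55 ± 0.14), YARS1 (-0.44 ± 0.10), VARS1 (-0.42 ± 0.10), LARS1 (-0.40 ± 0.08), IARS1 (-0.39 ± 0.09) and TARS1 (-0.32 ± 0.08), each of which loads 1 amino acid onto its tRNA. LARS1 kept its call in 10, YARS1 in 3 and IARS1 in 2 of 12 fits with 1 array left out. The list's median change on single arrays was between -0.51 and -0.38 in RS4:11, -0.18 and -0.22 on the SEM-K2 arrays numbered 1, and 0.0046 and 0.01 on those numbered 2. This count ran from 0 to 9 when each array was left out in turn, lowest without RS4:11 vehicle replicate 2, and moved by over 1.5 times in every such fit except those without SEM-K2 vehicle replicate 2 or SEM-K2 obatoclax EC50 replicate 2 or SEM-K2 obatoclax 3xEC50 replicate 2, and was 0 with no replicate block.

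Chaperones of the endoplasmic reticulum, where secreted and membrane proteins fold, had 7 shared falls and 1 shared rise among 23 tested, with a median of -0.14. The median was -0.24 in RS4:11 and -0.05 in SEM-K2. On single arrays it ran from -0.36 to -0.18 in RS4:11. It was -0.11 and -0.17 on the SEM-K2 arrays numbered 1, and -0.03 and 0.10 on those numbered 2. Over all genes above 4 in both lines 2.48% were shared falls and 4.69% shared rises. HSPA5, or BiP, is the main chaperone of this compartment. HSPA5 read 12.62 and 12.53 on the RS4:11 vehicle arrays, 12.001 and 11.47 at EC50 and 11.90 and 11.43 at 3xEC50, and in SEM-K2 12.75 and 12.81, then 12.54 and 12.37, then 12.43 and 12.08. Treated and vehicle arrays did not overlap in either line, the treated being lower. The change was -0.65 ± 0.11 (adjusted p = 0.0122), with -0.88 ± 0.13 in RS4:11 and -0.42 ± 0.13 in SEM-K2. SDF2L1, which works with BiP, changed by -0.68 ± 0.13, MANF by -0.59 ± 0.12, HSP90B1 (GRP94) by -0.55 ± 0.13, PDIA4 by -0.54 ± 0.14, HYOU1 by -0.53 ± 0.12 and DNAJB11 by -0.38 ± 0.09. The sensor ERN1 (IRE1) was the shared rise (0.61 ± 0.11, adjusted p = 0.0153), at least 1.1-fold in RS4:11, where its vehicle mean was under 4, and with values under 4 set to 4 it changed by 0.43 and did not pass (adjusted p = 0.0726). Leaving out each array in turn gave between 1 and 8 shared genes in the list, lowest without RS4:11 vehicle replicate 2, and moved by over 1.5 times in every such fit except those without SEM-K2 vehicle replicate 2 or SEM-K2 obatoclax EC50 replicate 2 or SEM-K2 obatoclax 3xEC50 replicate 2, and was 3 with no replicate block. None of 12 tested cytosolic heat shock genes was shared, with a median of -0.11.

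Ribosome biogenesis, the making and processing of ribosomal RNA in the nucleolus, held the most shared falls of the lists. Of 37 tested genes 16 were shared falls (background 2.48%) and 0 shared rises. Of the 37, 2 were above 0, against 59.3% of all genes tested. The median was -0.29, with -0.31 in RS4:11 and -0.25 in SEM-K2. RRS1 is an assembly factor of the large subunit. For RRS1, the RS4:11 arrays gave 11.33 and 11.57 with vehicle, 10.79 and 11.04 at EC50 and 10.71 and 10.96 at 3xEC50, and the SEM-K2 arrays 10.76 and 11.04, 10.27 and 10.61 and 10.25 and 10.44. In both lines every obatoclax array was below both vehicle arrays. The change was -0.54 ± 0.06 (adjusted p = 0.00324), with -0.57 ± 0.09 in RS4:11 and -0.51 ± 0.09 in SEM-K2. RRP12 takes part in the export of both subunits. The values of RRP12 were 7.83 and 8.56 (vehicle), 7.17 and 7.89 (EC50) and 7.00 and 7.66 (3xEC50) in RS4:11 and 7.85 and 8.34, 7.15 and 7.85 and 7.15 and 8.11 in SEM-K2. Vehicle and obatoclax arrays overlapped in both lines, while each treated array lay below the vehicle array of its own replicate number. Over both lines RRP12 changed by -0.65 ± 0.09 (adjusted p = 0.00547), by -0.77 in RS4:11 and -0.53 in SEM-K2. NOP16 is a nucleolar protein under MYC. NOP16 read 10.52 and 10.94 on the RS4:11 vehicle arrays, 10.06 and 10.44 at EC50 and 10.16 and 10.40 at 3xEC50, and in SEM-K2 10.73 and 10.88, then 10.25 and 10.58, then 10.13 and 10.38. Neither line had an overlap, with obatoclax arrays lower throughout. Over both lines NOP16 changed by -0.47 ± 0.07 (adjusted p = 0.00567), by -0.47 in RS4:11 and -0.47 in SEM-K2. The range of the shared members ran from MRTO4 (a ribosome stalk factor, -0.70 ± 0.15, adjusted p = 0.0275) to NCL (nucleolin, -0.24 ± 0.06, adjusted p = 0.0408), and included the polymerase I subunits POLR1A (-0.47 ± 0.10) and POLR1B (-0.31 ± 0.08) and the helicase DDX21 (-0.44 ± 0.07). With 1 array left out at a time the count ran from 5 to 18, lowest without RS4:11 vehicle replicate 2, and moved by over 1.5 times in every such fit except those without SEM-K2 obatoclax EC50 replicate 2 or SEM-K2 obatoclax 3xEC50 replicate 2, and was 1 with no replicate block. Taken from the 6 group means it was 2 at EC50 and 9 at 3xEC50. The median of the list's changes on single arrays lay between -0.42 and -0.14 and was below 0 on all 8, the 2 highest being SEM-K2 arrays numbered 2. The 25 tested ribosomal proteins themselves had 0 shared members and a median of 0.03.

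MYC, a transcription factor known to bind E-boxes, was 1 of 9 tested members of the MYC and MAX network. It was the network's 1 shared gene, beside 7.17% shared in either direction over all genes above 4 in both lines. In RS4:11, MYC stood at 13.04 and 13.25 with vehicle, 12.74 and 13.15 at EC50 and 12.62 and 13.05 at 3xEC50, and in SEM-K2 at 13.27 and 13.22, 12.79 and 12.77 and 12.75 and 12.81 in the same order. The groups overlapped in RS4:11 but not in SEM-K2, and every treated array of MYC was lower than its own vehicle array. Over both lines MYC changed by -0.36 ± 0.07 (adjusted p = 0.0198), by -0.25 in RS4:11 and -0.47 in SEM-K2. The E-box CACGTG stood in 18.6% of the 290 promoters of shared fallen genes, against 9.73% for shared risen and 9.7% for all tested genes. It stood in 6 of 16 promoters of the shared ribosome biogenesis members and in 41.7% of 36 promoters of all its tested members. A match shows no binding in these cells, and a part of MYC in these falls was not tested. Matches in 3 of the fallen genes follow, in the form used above and cut at the gene's start.
DDX21, chr10:68956602-68956635, plus strand: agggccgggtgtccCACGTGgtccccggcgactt
UTP4, chr16:69132619-69132648, plus strand: tgagagcgcgcgcgCACGTGgggccggggc
UTP20, chr12:101280081-101280104, plus strand: ttcttttttccgtcCACGTGaccc
DDX21, UTP4 and UTP20, of which the UTP genes encode processing factors of the small subunit, have the match 31, 16 and 10 bases before the start and changed by -0.44, -0.32 and -0.59. For the FOXO site TGTTTAC the share was 3.42% of all promoters, 5.49% in shared risen and 4.48% in shared fallen genes, and for the sterol regulatory element, TCAC, any base and CCAC, 1.13%, 1.42% and 1.38%.

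The remaining lists had few shared members, beside a background of 4.69% risen and 2.48% fallen. In cholesterol and fatty acid synthesis INSIG1 (the protein that retains the sterol sensor, 0.61 ± 0.11, adjusted p = 0.0127) and SC5D (a late cholesterol enzyme, 0.50 ± 0.11, adjusted p = 0.0252) rose, while ACACA (acetyl-CoA carboxylase, -0.39 ± 0.08, adjusted p = 0.0205) and ELOVL6 (an elongase, -0.51 ± 0.12, adjusted p = 0.0343) fell, among 26 tested. HMGCS1, at the entry of the cholesterol pathway, gave 0.17 ± 0.10, and none of 3 tested genes of cholesterol export was shared. Of 29 genes of glycolysis and hypoxia 4 were shared rises: the glucose transporter SLC2A3 (0.63 ± 0.12), PFKFB3 (0.51 ± 0.13), which makes the activator of phosphofructokinase, the histone demethylase KDM3A (0.50 ± 0.09) and ANKRD37 (0.45 ± 0.12). The list's median was 0.10. This count ran from 0 to 3 when each array was left out in turn, lowest without SEM-K2 vehicle replicate 2, and moved by over 1.5 times in every such fit except those without RS4:11 vehicle replicate 1 or RS4:11 obatoclax EC50 replicate 2 or RS4:11 obatoclax 3xEC50 replicate 1 or SEM-K2 obatoclax 3xEC50 replicate 2, and was 0 with no replicate block. ANKRD37 lost its call in each of these fits. Of the 29 tested respiratory chain genes SDHA (0.34 ± 0.08) and of 8 metallothionein and zinc genes MT1F (0.33 ± 0.08) were shared rises. SDHA has 1 probe set, an _x_at one, and kept its call in 2 of 12 fits with 1 array left out.

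Immediate early genes had 3 shared rises (background 4.69%) among 19 tested. DUSP1 encodes a phosphatase that inactivates MAP kinases. For DUSP1, the RS4:11 arrays gave 11.52 and 10.87 with vehicle, 11.90 and 11.81 at EC50 and 11.96 and 11.88 at 3xEC50, and the SEM-K2 arrays 10.00 and 9.51, 10.41 and 10.15 and 10.62 and 10.42. Thus DUSP1 was higher on every treated array than on any vehicle array of its line. The change was 0.67 ± 0.10 (adjusted p = 0.00636), with 0.70 ± 0.15 in RS4:11 and 0.64 ± 0.15 in SEM-K2. ETV5, an ETS factor downstream of ERK, changed by 0.70 ± 0.11 and JUND, a subunit of AP-1, by 0.77 ± 0.15. The 4 probe sets of JUND ran from 0.0018 to 0.77, and the means of probe sets gave 0.23 for JUND (adjusted p = 0.314) and 0.33 for ETV5 (adjusted p = 0.0558). FOS gave 0.62 ± 0.22 and EGR1 0.08 ± 0.17, neither of which passed. NR1D2, a repressor of the circadian clock, was the 1 shared gene of 13 (0.47 ± 0.11), near the 7.17% shared in either direction over all genes. BHLHE40 reached 1.67 ± 0.52 without passing (adjusted p = 0.0789). Among 17 tested p53 targets MDM2 (the ligase that degrades p53, -0.51 ± 0.10, adjusted p = 0.021) and AEN (an apoptosis-enhancing nuclease, -0.49 ± 0.12, adjusted p = 0.0426) fell and CCNG1 (cyclin G1, 0.34 ± 0.08, adjusted p = 0.032) rose, and CDKN1A gave 0.32 ± 0.17. The p53 counts stand beside a background of 2.48% shared falls and 4.69% shared rises. Of 12 fits with 1 array left out AEN kept its call in 2, NR1D2 in 4, CCNG1 in 5 and MDM2 in 10. Vehicle and obatoclax arrays of AEN overlapped in both lines.

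Of 29 replication genes CDT1 (the licensing factor, 0.55 ± 0.09, adjusted p = 0.00869) and CCNE2 (cyclin E2, 0.47 ± 0.12, adjusted p = 0.0478) were shared rises. Of 27 mitotic genes BUB1 (a spindle checkpoint kinase, 0.27 ± 0.06, adjusted p = 0.0333) was one. These counts lie near the background of 4.69% shared rises and say nothing particular about the lists. CDT1 was read on an _x_at probe set, and without such sets it gave 0.36 and did not pass (adjusted p = 0.107). With 1 array left out CCNE2 kept its call in 1 of 12 fits and BUB1 in 3. The median change was 0.16 for replication and 0.20 for mitosis. For mitosis it differed with the replicate number: on the arrays numbered 1 the list's median change was -0.05 to 0.05, and on those numbered 2, whose vehicle arrays had the lowest medians over all genes, 0.31 to 0.41. The part of the vehicle arrays numbered 2 in the mitotic values was not tested further.

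**Figure D4:**
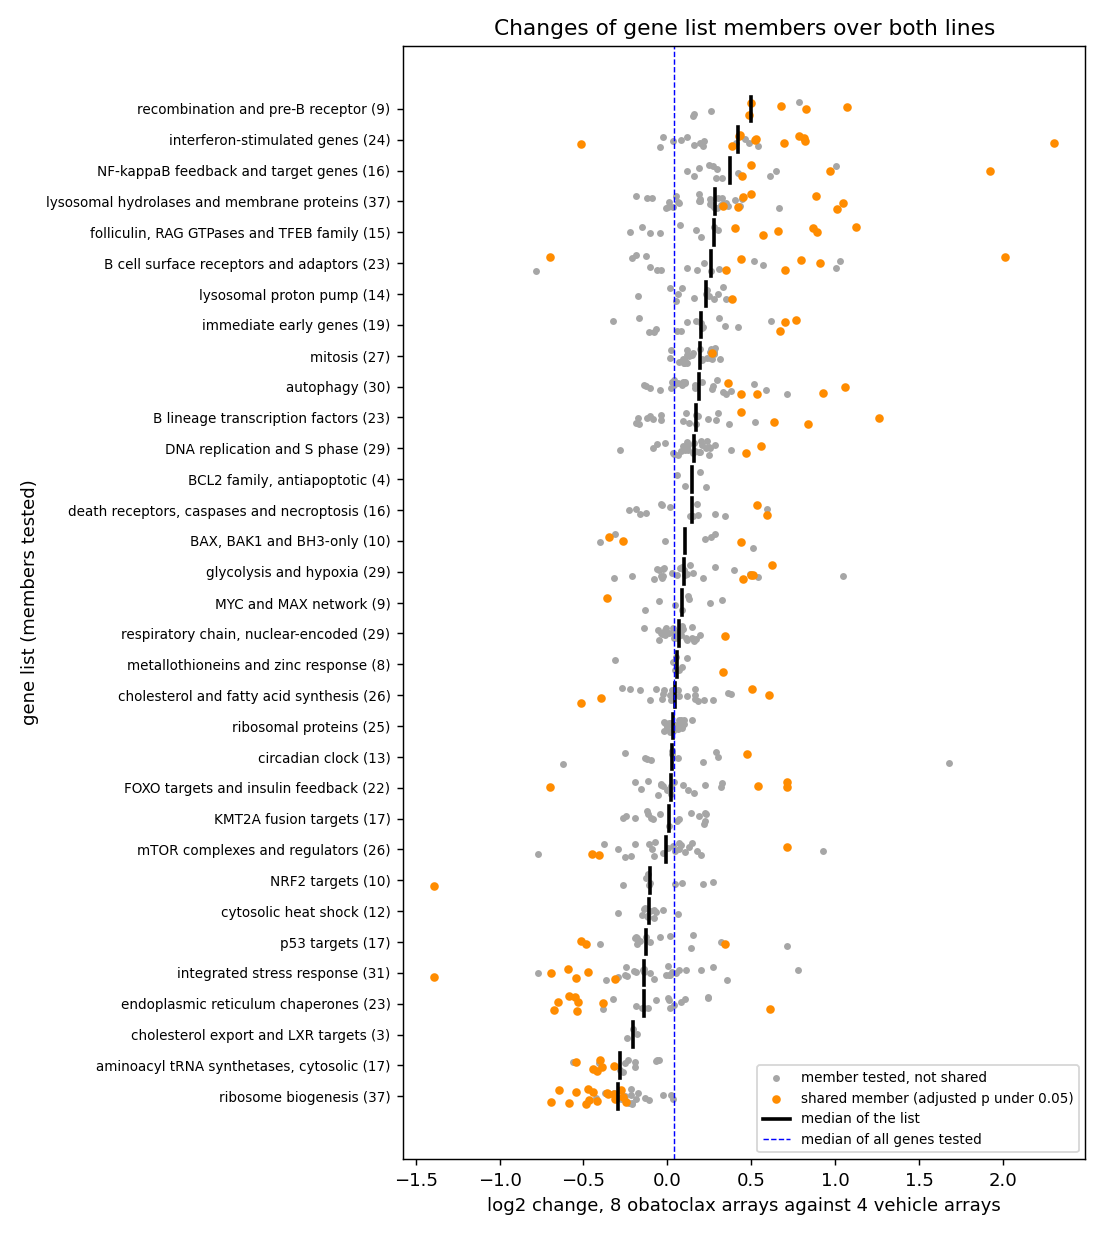
Log2 change over both lines (x axis) of every tested member of 33 gene lists (rows, with the number of members tested), ordered by the list's median (black bar); orange points are shared genes and grey points other members, and the dashed line is the median of all genes tested, 0.04. Lists of the pre-B receptor, interferon, NF-kappaB and the lysosome stand at the top, and ribosome biogenesis, with 16 orange points and a median of -0.29, at the bottom.

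As stated above, 20 genes were called in each of the lines, with an estimate of spread common to both. Besides FLCN, FNIP2, GPR18, GSDME, IFIT3, NLGN4X, RHEBL1, RRS1, TEC, USP18 and VPREB3, described above, they held 8 further named genes, which are given here because they belong to this set and were chosen after their values were seen, and 1 probe set annotated to a microRNA gene, for which no value is given. CAPG, an actin-capping protein, changed by 0.65 ± 0.12 in RS4:11 and 1.43 ± 0.12 in SEM-K2. MFGE8, a secreted bridge between phosphatidylserine and integrins, changed by 0.94 ± 0.16 and 0.83 ± 0.16, and ALDH5A1, an enzyme of GABA breakdown, by 0.78 ± 0.14 and 0.85 ± 0.14. RHOBTB3, a protein with BTB domains, DOCK10, a guanine nucleotide exchange factor, ADD3, an adducin of the membrane skeleton, and CCDC28A rose by 0.71 ± 0.08, 0.66 ± 0.08, 0.61 ± 0.07 and 0.55 ± 0.07 over both lines. DAAM1, a formin that polymerises actin, fell in both, with -0.52 ± 0.09 in RS4:11 and -0.78 ± 0.09 in SEM-K2. Of the 20, the 3 that fell were DAAM1, NLGN4X and RRS1.

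Of the 86 genes named by rule, vehicle and obatoclax arrays were apart in both lines for 48, in RS4:11 for 63 and in SEM-K2 for 64, counts that the rule itself favours. Over all genes tested they were apart in 5.31%, 19.1% and 18.4%. 38 of them kept their call in all 12 fits that each left out 1 array, as did 115 of the 703 shared genes (91 risen, 24 fallen). With no replicate block 51 of the 86 lost the call. When probe sets of 1 gene were averaged 15 lost it: ATP6V1D, BAD, CFLAR, ETV5, JUND, TCF3, ACACA, BUB1, CD79B, CYLD, LARS1, MDM2, NR1D2, SC5D and SLC2A3, and adjusted p of the 15 ran from 0.0531 to 0.796. After centring each array on its median ANKRD37, BNIP3L, BUB1, CCNE2, NR1D2 and SDHA lost it, with adjusted p from 0.0519 to 0.0954. The array with the largest effect was RS4:11 vehicle replicate 2, without which 117 genes rose and 32 fell in both lines, followed by SEM-K2 vehicle replicate 2, with 159 and 157. Counts also moved by over 1.5 times without SEM-K2 3xEC50 replicate 1 (218 and 103), RS4:11 3xEC50 replicate 1 (230 and 109), SEM-K2 vehicle replicate 1 (295 and 108), RS4:11 EC50 replicate 2 (282 and 142) and RS4:11 3xEC50 replicate 2 (300 and 134), and for the falls without SEM-K2 EC50 replicate 1 (144).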

How the data were processed

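Total RNA of 12 samples was measured on Affymetrix U133 Plus 2 arrays. The authors processed the scans with GCRMA, as the submitters' processing notes record without a version, which subtracts background modelled on probe sequence and applies quantile normalisation and a summary over the probes of a set. Their scale is not stated; the deposited values, between 0.636 and 16.2 with array medians of 3.13 to 3.16, were read as log2. Precision rests on how many arrays there are, since no read depth lies behind an array value.

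41097 of the 54675 probe sets had 1 gene symbol in the platform annotation and 62 controls were left out. The probe set with the highest mean stood for a gene, and genes above 4 on at least 2 arrays were kept. The tests used limma 3.58.1 (lmFit, eBayes; R 4.3.3) with 4 terms for line and replicate number and 1 for obatoclax (7 residual and 3.49 prior degrees of freedom), or 1 for obatoclax in each line. Benjamini-Hochberg adjustment ran over all 10561 genes. The tests were checked on simulated data.

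Replicate numbers come from the sample titles. Arrays of 1 line with the same number deviated together from their group means, with correlations of 0.52 to 0.60 in RS4:11 and 0.35 to 0.46 in SEM-K2, so the numbers were taken to pair the arrays and the block was kept.

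The members and the 38 gene lists were chosen with earlier results of these data known, and lists are described by counts and medians without a list test. Genes were named by rule: shared genes with all 8 obatoclax arrays on 1 side of their own vehicle array, namely the 12 largest rises and falls with values under 4 set to 4, and up to 3 shared members of each list by smallest p. Other list members are named with their values. Promoters came from a RefSeq table of GRCh38.p14, which matched 64 of the 86 named genes. Alternatives covered the block, concentrations, filter, floor, probe sets, centring, variance model, threshold and each array left out.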

Additional observations from a re-analysis of the deposited data

Results flagged for a closer look

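Probe sets without a single gene name were not used in the comparison. Of 4534 such probe sets above 4 on at least 2 arrays, tested in the same way among themselves, 28 rose and 57 fell in both lines. Their transcripts were not identified here.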

How the results depend on the processing

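The counts of shared genes depended on the model. With no replicate block they were 100 risen and 33 fallen, and 35 of the 86 named genes kept the call without it. With no block, 14 of the 16 list counts of 3 or more moved by over 1.5 times. Fitted alone, the EC50 arrays gave 0 risen and 0 fallen genes (limma, 1801 genes at an unadjusted p under 0.05), as did the 3xEC50 arrays (1815 genes), with 8 of the 12 arrays in each fit. Taken from 6 group means of all 12 arrays, an alternative chosen after seeing the data, EC50 gave 72 and 21 and 3xEC50 229 and 130, and 14 and 5 of the 16 list counts moved so. No filter on low values, which tests more genes, left 224 and 119. Centring arrays on the median gave 369 falls, and an adjusted p under 0.01 gave 77 and 16. The test in both lines called 8 rises with a variance trend and robust eBayes. Shared genes that differed between lines numbered 3 in that fit, 2 with the mean of probe sets, 1 with values under 4 set to 4 and 1 after centring. With 1 array left out at a time the counts ran from 117 to 462 risen and from 32 to 289 fallen, the test in both lines called 0 to 1 rises, and 0 to 1 shared genes differed between lines. Of the 86 named genes 85 kept their sign under every alternative run, and CFLAR turned to -0.089 without _x_at probe sets. Apart from these constructions, the cause was not tested.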
